A study of Caenorhabditis elegans with 2 samples.

Results

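Translation initiation and elongation factors are the proteins that bring ribosomes to a messenger RNA and move them along it. Their genes in Caenorhabditis elegans were taken here as the protein-coding genes of the Ensembl WBcel235 annotation (release 115) whose symbol starts with eef-, eif-, iff-, ife- or ifg-, which gave 39 of 19985 protein-coding genes. Genes were taken into the list by name only, but the list was drawn up with earlier results of these data known. By name, 6 of the 39 are elongation factor genes, those with eef-, and the other 33 are counted as initiation factor genes. The 33 include the eIF5A genes iff-1 and iff-2 and eif-4A3 of the exon junction complex, so the split is by name and not by role. The data are ChIP-seq peak lists of PHA-2, a homeobox factor of the Hex type that is needed for the isthmus of the pharynx. Animals of strain OP687, with the genotype unc-119(tm4063) III; wgIs687, carried PHA-2 fused at its C terminus to GFP-FLAG, and an antibody to GFP was used. Whole late embryos of pooled sex were taken 3 h after synchronisation by egg bleaching, as 2 biological replicates of 1 group with no second condition. Chromatin came from the whole organism, so the cells behind a peak are not known, and the tagged protein came from a transgene rather than the pha-2 locus.

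Initiation begins when eIF2 carries the initiator tRNA to the small ribosomal subunit and eIF2B recharges eIF2 with GTP. The cap-binding protein eIF4E, the scaffold eIF4G and the many-subunit complex eIF3 place that subunit on the messenger RNA. Elongation then needs eEF1A, which delivers aminoacyl-tRNA, its exchange factor eEF1B, and eEF2, which moves the ribosome forward by a codon. All cells that make protein use most of these factors, and a few, such as the eIF4E and eIF5A genes, have germline and somatic copies in this species.

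Each gene was read over a window reaching 1000 bp upstream and 500 bp downstream of its annotated 5′ end, and the summit of highest signal there is called its best summit. The signal is the value of the authors' peak caller, and ranks run from 1 for the strongest peak of a list. The optimal list holds 878 peaks, kept by the authors after their reproducibility step (IDR). These were the 878 strongest of the 30000 peaks in the relaxed list of the pooled replicates. A peak of the optimal list need not rank high in both replicates. The relaxed lists of replicate 1 and replicate 2 held 23371 and 24336 peaks. Values marked pooled come from the pooled list. The authors name it peaks and background as input for their reproducibility step (IDR), so a summit there need not be a binding site. Signals in the replicate lists are on a lower scale than pooled ones, so ranks are compared across lists. Read counts are not part of the lists, and the sequencing depth behind each peak is therefore unknown.

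An optimal summit lay in the window of 6 of the 39 genes, eif-3.C, iff-2, eef-1A.2, eif-3.E, eef-1A.1 and eif-2Bgamma. The sequence at the summit is shown for the 4 of them whose chromosomes are II, III and X, as the 151 bases of WBcel235 centred on the pooled summit and read in the direction of the gene. They are shown so that the bases under these summits can be read beside their signals. Capitals mark matches, on either strand, to 6 words: TAATTA and ATTAAA, which are AT-rich words of the kind homeodomains bind and which can overlap each other, CACGTG (an E-box), TATAAA (the core promoter box), GAGAGA (a dinucleotide repeat) and GTTCGANNC, the core of the inner promoter box of tRNA genes.
eef-1A.1 (chrIII:6971909-6972059, minus strand): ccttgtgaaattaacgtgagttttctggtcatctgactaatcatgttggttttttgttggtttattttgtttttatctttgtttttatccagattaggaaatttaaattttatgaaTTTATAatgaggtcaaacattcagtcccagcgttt
eef-1A.2 (chrX:7823191-7823341, plus strand): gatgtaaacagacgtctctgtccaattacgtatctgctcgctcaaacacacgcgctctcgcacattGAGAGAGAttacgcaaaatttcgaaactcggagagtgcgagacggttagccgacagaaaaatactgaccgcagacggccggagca
eif-2Bgamma (chrII:6968285-6968435, minus strand): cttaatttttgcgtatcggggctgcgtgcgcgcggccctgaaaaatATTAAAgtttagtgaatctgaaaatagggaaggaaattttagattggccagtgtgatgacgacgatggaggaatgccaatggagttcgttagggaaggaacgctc
iff-2 (chrII:8561341-8561491, minus strand): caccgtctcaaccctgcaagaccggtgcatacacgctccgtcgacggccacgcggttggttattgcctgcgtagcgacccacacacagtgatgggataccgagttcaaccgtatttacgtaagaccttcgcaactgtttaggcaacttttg

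The GC content of these windows was 54.3% at iff-2, 50.3% at eef-1A.2, 45.7% at eif-2Bgamma and 29.1% at eef-1A.1. Over all 6 genes with an optimal summit the median was 45.0%, beside 47.0% over the 856 nuclear optimal summits. The eef-1A.1 window held TATAAA once on the opposite strand, the eef-1A.2 window held GAGAGA as 2 overlapping matches, the eif-2Bgamma window held ATTAAA once and the iff-2 window held none of the 6 words. The first 42 bases of the eif-2Bgamma sequence are the 3′ end of sup-39, which is annotated as a small nuclear RNA (snRNA) gene, and 84 bases of the eef-1A.1 window belong to the microRNA gene cel-mir-5549. Of the 31 genes with any pooled summit, 11 (35.5%) held ATTAAA at it, beside 14.7% of the nuclear optimal summits, 25.3% of the 29976 nuclear pooled summits and 30.7% of the windows of the same length that end at the 5′ ends of 19973 nuclear protein-coding genes. TAATTA was in 0 of the 31, beside 3.97%, 7.20% and 9.41% in the same 3 sets. GAGAGA was in 9.68%, beside 25.7%, 11.0% and 12.8%, and TATAAA in 16.1%, beside 9.35%, 16.4% and 25.5%. CACGTG was in 3.23%, beside 2.69%, 2.59% and 3.44%. GTTCGANNC was in 0 of the 31, beside 13.6%, 1.93% and 0.611%.

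PHA-2 summits stood at these genes more often than at protein-coding genes in general, at each depth from the 878 strongest pooled peaks to all 30000. Among the 439 strongest, the difference rests on 1 gene (2.56%, beside 1.41%). The 6 genes with an optimal summit are 15.4% of the 39, beside 2.80% of all protein-coding genes. Among the 2000 strongest pooled peaks the counts were 10 genes (25.6%) beside 5.72%, among the 5000 strongest 19 (48.7%) beside 11.2%, and among the 10000 strongest 24 (61.5%) beside 18.5%. In the whole pooled list, which includes background, 31 of the 39 (79.5%) had a summit, beside 39.6%. The authors' pooled −log10 q-value was 1.65 to 2.07 at the best summits of the 6 genes with an optimal summit. At the other genes with a pooled summit it ran from 1.09 at eif-3.I down to 0.0314 at eif-4A3. The 39 genes are included in the share of all genes, and these depths are nested, so they are not separate observations. No test was made of these differences, since the list was drawn up with earlier results of these data known.

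**Figure D1:**
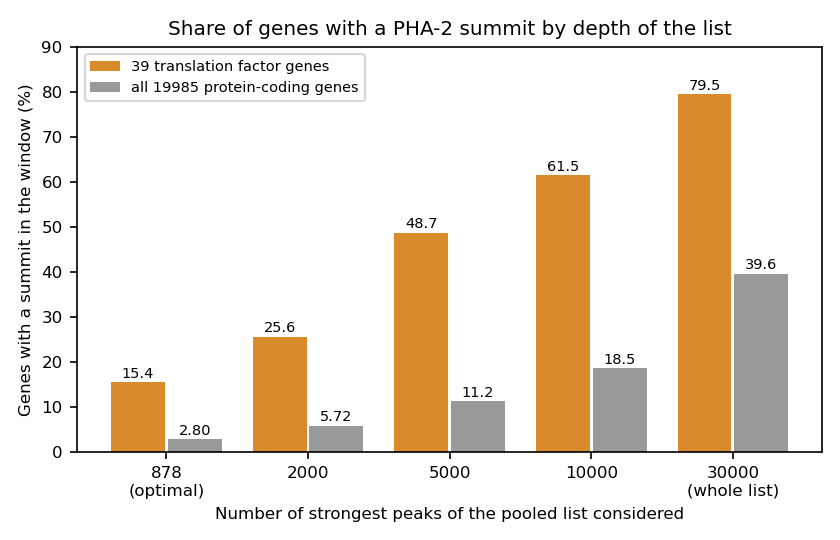
Percentage of genes with a PHA-2 summit in the promoter window (1000 bp upstream, 500 bp downstream; vertical axis) for the 878, 2000, 5000, 10000 and 30000 strongest pooled peaks (horizontal axis), in the 39 translation factor genes (orange) and all 19985 protein-coding genes (grey). The orange bar is the higher at every depth, 15.4% against 2.80% in the optimal list and 79.5% against 39.6% in the whole list.

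The signals themselves were moderate. Among the 31 genes with a pooled summit the best signal had a lowest value of 37.9, a median of 77.5 and a highest value of 253, beside a median of 52.4 over the 7922 protein-coding genes with a pooled summit. In replicate 1 the median was 40.0 over 30 genes, beside 32.0 over all genes, and 31.9 over 29 genes in replicate 2, beside 31.5. The higher median was thus seen in the pooled list and in replicate 1, and in replicate 2 the medians were close. Of the 39 genes, 18 reached the 90th percentile of best pooled signal among all protein-coding genes, with genes without a summit counted at 0. Only 39.6% of protein-coding genes had a pooled summit, so on that scale any summit places a gene above most others. The lowest of the 31, eif-4A3, stood at percentile 65.9. Its signal of 37.9 was below the lower quartile of 41.7 over the 7922 genes with a pooled summit. Over genes with a pooled summit only, the upper quartile was 94.0 for the 31, beside 71.3 for the 7922. Only eif-3.C had a summit among the 439 strongest optimal peaks (2.56% of the 39, beside 1.41% of protein-coding genes), so the difference at that depth rests on 1 gene. The optimal list ended with eef-1A.1 at rank 877 and eif-2Bgamma at rank 878. Below them came a gap, with eif-3.I next at rank 1530.

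**Figure D2:**
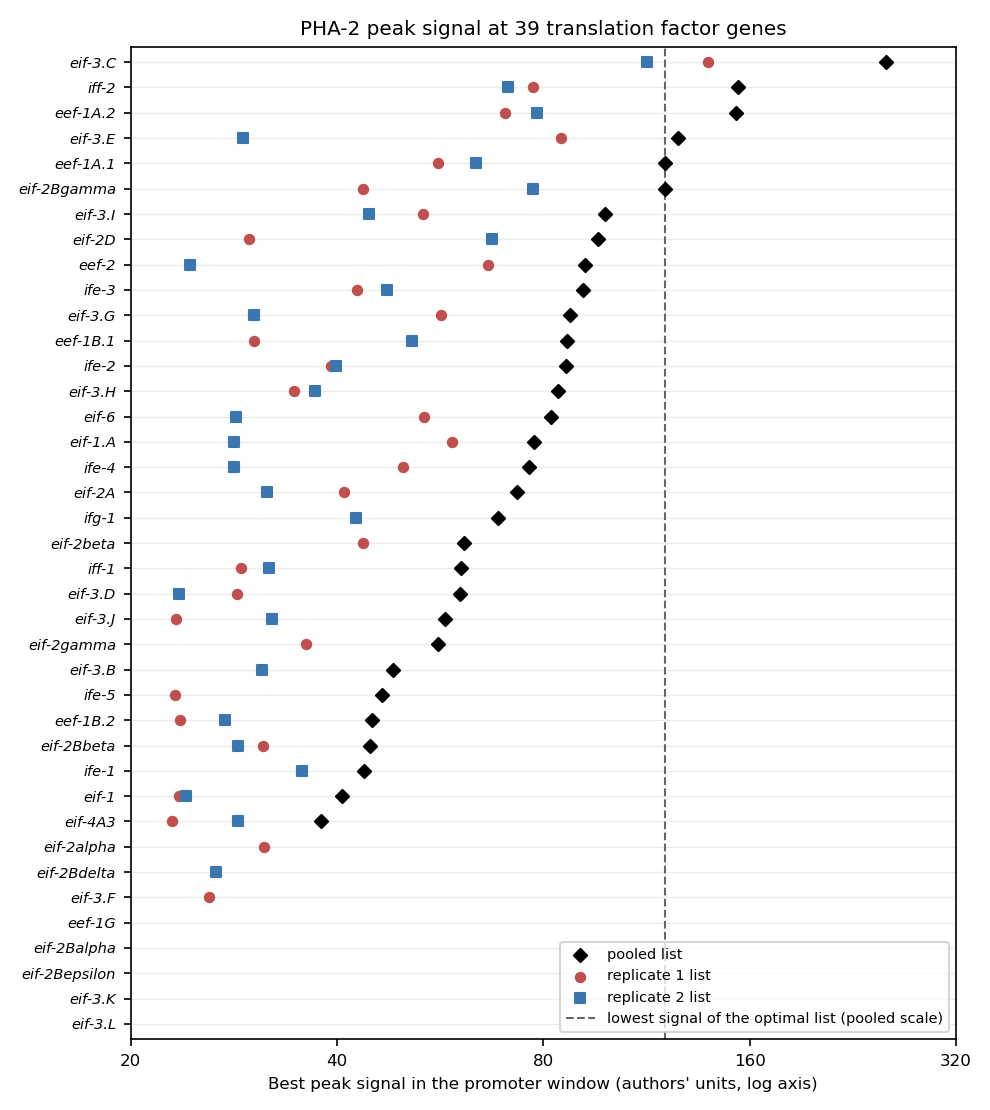
Best peak signal (authors' units, log axis) of each of the 39 genes in the pooled list (black), replicate 1 (red) and replicate 2 (blue), ordered by pooled signal, with the lowest signal of the optimal list (120) as a dashed line that applies to the pooled values. A total of 6 genes reach the line, and 8 genes at the bottom have no pooled summit.

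The 6 genes named eef- held 2 of the 6 optimal summits, both at the genes of eEF1A, and 5 of these genes had a pooled summit. Here and below, classes hold 1 to 11 genes, so their counts are descriptions, to be read beside the 2.80% and 39.6% of protein-coding genes with an optimal and a pooled summit. At eef-1A.2 (WBGene00001169, chromosome X, peak 7823038 to 7823493) the signal was 153 pooled, 70.3 in replicate 1 (rank 763) and 78.3 in replicate 2 (rank 459), with the pooled summit 388 bp upstream of the 5′ end, between genes. Both replicates thus placed it among their 878 strongest peaks. At eef-1A.1 (WBGene00001168, chromosome III, peak 6971756 to 6972211) the signal was 120 pooled, 56.1 in replicate 1 (rank 1446) and 63.7 in replicate 2 (rank 821). Only replicate 2 had it among the 878 strongest, and the replicate summits were 85 bp apart. The pooled summit lay inside cel-mir-5549, about midway between the divergent starts of eef-1A.1 (272 bp) and rfc-4 (269 bp). The gene rfc-4 encodes a subunit of the clamp loader of DNA replication. Distance does not assign that pooled summit to either start. Other summits in the window were nearer to rfc-4, whose start is at -541. They were the replicate 1 summit at -357 and a weaker summit at -473, pooled (87.2, rank 2198) and in replicate 2 (45.8, rank 2553).

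The other genes named eef- had weaker or unequal peaks. At eef-2 (WBGene00001167, chromosome I), the translocase gene, the signal was 91.9 pooled, 66.4 in replicate 1 (rank 873) and 24.4 in replicate 2 (rank 18999). Replicate 1 alone had it among its 878 strongest, and the summits, in the 5′ UTR in the pooled list, were 214 bp apart. Of the genes of the exchange factor eEF1B, eef-1B.1 had a pooled signal of 86.8 and eef-1B.2 of 44.9. The pooled eef-1B.1 summit was at -17. Near it, replicate 2 had a signal of 51.5 (rank 1670) and replicate 1 had 23.9 (rank 19178). The best replicate 1 summit was elsewhere, at -916, with 30.3 (rank 10411). No relaxed list had a summit in the window of eef-1G, which encodes the gamma subunit.

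The eIF5A genes, whose product helps ribosomes through difficult stretches of protein, differed from each other in these lists. At iff-2 (WBGene00002065, chromosome II, peak 8561188 to 8561643), the somatic copy, the signal was 154 pooled, 77.3 in replicate 1 (rank 605) and 71.1 in replicate 2 (rank 607). Its replicate summits were 9 bp apart and the pooled one was 49 bp upstream of the 5′ end, so both replicates gave the same place at nearly the same rank. At iff-1, the germline copy, the signal was 60.7 pooled, 29.0 in replicate 1 (rank 11830) and 31.9 in replicate 2 (rank 9230), and the summit was nearer to the divergent start of cdk-1 (126 bp) than to that of iff-1 (153 bp).

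The eIF3 genes gave the strongest site of the family and also some of its empty windows. Of 11 subunit genes, 8 had a pooled summit, with signals from 48.2 to 253 and a median of 85.9, and 2 had an optimal one. At eif-3.C (WBGene00001226, chromosome I, peak 9979682 to 9980137), a core subunit, the signal was 253 pooled, 139 in replicate 1 (rank 162) and 113 in replicate 2 (rank 200). The replicate summits were 1 bp apart, and the pooled one was 248 bp upstream, between eif-3.C and the 3′ end of sys-1, a beta-catenin gene on the same strand, with no other protein-coding start within 1000 bp upstream. At eif-3.E (WBGene00001228, chromosome I, peak 10642269 to 10642724) the signal was 126 pooled, 84.8 in replicate 1 (rank 482) and 29.1 in replicate 2 (rank 11993). Its summits in the replicates were 12 bp apart, so the position was shared while the rank was not. Only replicate 1 had it among its 878 strongest peaks.

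At eif-3.I the strongest peak lay outside the window. The best summit in the window, 219 bp upstream, had a signal of 98.5 pooled, 53.3 in replicate 1 and 44.6 in replicate 2, and was not in the optimal list. A stronger, optimal peak lay in an intron of the gene (chromosome I, 2487649 to 2488104), 2016 bp downstream of the gene's 5′ end and at -527 from the 5′ end of a second, shorter annotated transcript. Its signal was 143 pooled (rank 573), 69.4 in replicate 1 (rank 781) and 65.9 in replicate 2 (rank 738), with the summit at the same base in all lists. With the 5′ ends of all transcripts taken into account, 7 of the 39 genes (17.9%) had an optimal summit, beside 3.11% of protein-coding genes. The remaining eIF3 genes with a pooled summit were eif-3.G, eif-3.H, eif-3.D, eif-3.J and eif-3.B, with signals from 48.2 to 87.6. The summit of eif-3.H was nearer to the divergent start of C41D11.3 (70 bp) than to its own (300 bp). That of eif-3.D was nearer to the divergent start of R08D7.4 (102 bp, beside 212 bp). At eif-3.J it was at -987, in the 3′ UTR of slc-25A46, and at eif-3.B replicate 1 had no summit. No pooled summit was found at eif-3.F, eif-3.K and eif-3.L.

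**Figure D3:**
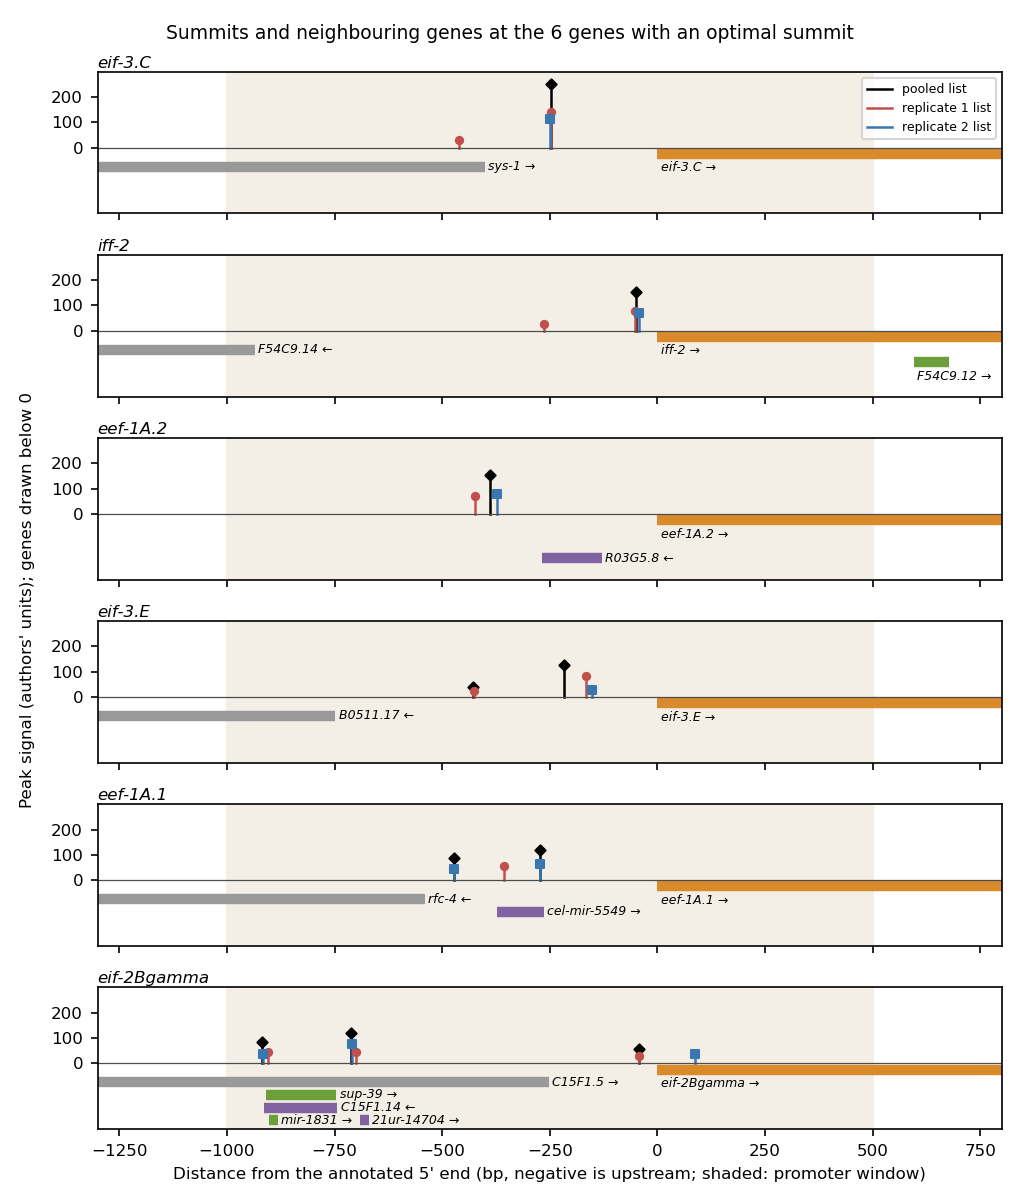
Summits at the 6 genes with an optimal summit, as stems whose height is the signal in the pooled list (black), replicate 1 (red) and replicate 2 (blue), against distance from the annotated 5′ end in bp, with genes drawn below (orange the named gene, grey other protein-coding genes, green snRNA and snoRNA genes, purple other non-coding genes, arrows the direction relative to the named gene). The best summits of eif-3.C and iff-2 nearly coincide between replicates, while the strongest pooled summit of eif-2Bgamma lies 712 bp upstream, beside sup-39.

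The factors eIF2 and eIF2B bring the initiator tRNA and renew the GTP of eIF2. Of the 5 eIF2B subunit genes, 2 had a pooled summit, eif-2Bgamma with a signal of 120 and eif-2Bbeta with 44.8, and eif-2Balpha, eif-2Bdelta and eif-2Bepsilon had none. At eif-2Bgamma (WBGene00004090, chromosome II, peak 6968132 to 6968587) the best signal was 120 pooled, 43.7 in replicate 1 (rank 3201) and 77.3 in replicate 2 (rank 474). The replicate 1 value belongs to another summit, 193 bp from the pooled one and inside sup-39, and the best summits of the replicates were 195 bp apart. Nearest to the pooled summit, at -699, replicate 1 had a signal of 43.3 (rank 3287). Only replicate 2 had a summit among its 878 strongest. The pooled summit was in an intron of the upstream gene C15F1.5, 34 bp from the end of sup-39, and this was the only one of the 31 genes with its best summit within 200 bp of a tRNA, snRNA or snoRNA gene. Of all optimal peaks, 227 (25.9%) lay that close to such a gene, a share over the whole genome and not over promoter windows. With those peaks left out, 5 of the 6 factor genes kept an optimal summit, beside 495 of the 560 protein-coding genes that had one. Nearer to the start of eif-2Bgamma itself, 44 bp upstream, the pooled list had a summit with a signal of 55.2 (rank 9579).

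Among the subunits of eIF2, eif-2beta had a pooled signal of 61.2 and eif-2gamma of 56.2, and replicate 2 had no summit at either. The window of eif-2alpha, whose product is the subunit phosphorylated under stress, had a summit in replicate 1 only, with a signal of 31.3. The gene of eIF2D, a factor that can deliver tRNA to ribosomes without eIF2, had a higher signal, 96.0 pooled, 29.8 in replicate 1 (rank 10941) and 67.4 in replicate 2 (rank 683). Replicate 2 alone had eif-2D among its 878 strongest peaks, although the replicate summits were 17 bp apart.

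All 5 genes of the cap-binding protein eIF4E had a pooled summit, beside 39.6% of protein-coding genes. The optimal count was 0 of 5, beside 2.80%, from which nothing is read. The highest was ife-3, with a signal of 91.3 pooled, 42.8 in replicate 1 (rank 3412) and 47.3 in replicate 2 (rank 2260). It was followed by ife-2 (86.4), ife-4 (76.2), ife-5 (46.5) and ife-1 (43.8) in the pooled list. At ife-1, ife-3 and ife-5 another protein-coding start was nearer to the summit than that of the eIF4E gene. The pooled summit of ife-1 (rank 17629) was at the edge of the window, at -1000, in a coding exon of nud-1, and replicate 1 had none. That of ife-5 (rank 15337) was at -793 in an intron of Y57A10A.29, and replicate 2 had none. The eIF4G gene ifg-1 had a pooled signal of 68.7, no summit in replicate 1 and 42.7 in replicate 2, with its summit 117 bp from the start of the divergent gene M110.3 and 723 bp from its own.

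The start codon selection factors eif-1.A and eif-1 had pooled signals of 77.5 and 40.7, and eif-6, whose product keeps the ribosomal subunits apart, had 82.0. The alternative initiation factor eif-2A had 73.3. The lowest pooled signals of the family were those of eif-4A3, a helicase of the exon junction complex, with 37.9, eif-1, and ife-1. In the 8 windows without a pooled summit, eif-2alpha and eif-3.F had a summit in replicate 1, eif-2Bdelta in replicate 2, and eef-1G, eif-2Balpha, eif-2Bepsilon, eif-3.K and eif-3.L had none in any relaxed list. Those last 5 genes are 12.8% of the 39, and 49.6% of all protein-coding genes had no summit in any of the 3 lists.

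The replicates were compared by window, by signal and by position. Replicate 1 had a summit in 30 of the 39 windows (76.9%, beside 33.9% of protein-coding genes) and replicate 2 in 29 (74.4%, beside 34.6%). All 3 relaxed lists had one in 25 (64.1%, beside 20.6%). Those 25 are also the factor genes with a summit in both replicate lists, and 4296 protein-coding genes had both, with or without a pooled summit. Over the 25, best signals in replicate 1 and replicate 2 had Spearman's rho of 0.34, beside 0.53 over the 4296. This describes genes read in the same pair of libraries and called against the same control. The best summits of the replicates were within 100 bp of each other at 11 of the 25 (44.0%, beside 50.2%). At 9 of the 25 (36.0%, beside 12.5% of the 4296) the ranks differed by more than 5 times. Replicate 1 had the better rank in 12 of the 25 (48.0%, beside 53.4%), so neither replicate was ahead throughout.

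Taking the 878 strongest peaks of each replicate, replicate 1 reached 5 genes (12.8%, beside 2.83%) and replicate 2 reached 6 (15.4%, beside 2.45%). Both replicates reached 3, eif-3.C, eef-1A.2 and iff-2 (7.69%, beside 1.67%). Replicate 1 alone reached eif-3.E and eef-2, and replicate 2 alone reached eef-1A.1, eif-2Bgamma and eif-2D. The number of genes was thus similar in both replicates, while 3 of the optimal 6 were among the strongest peaks of both.

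**Figure D4:**
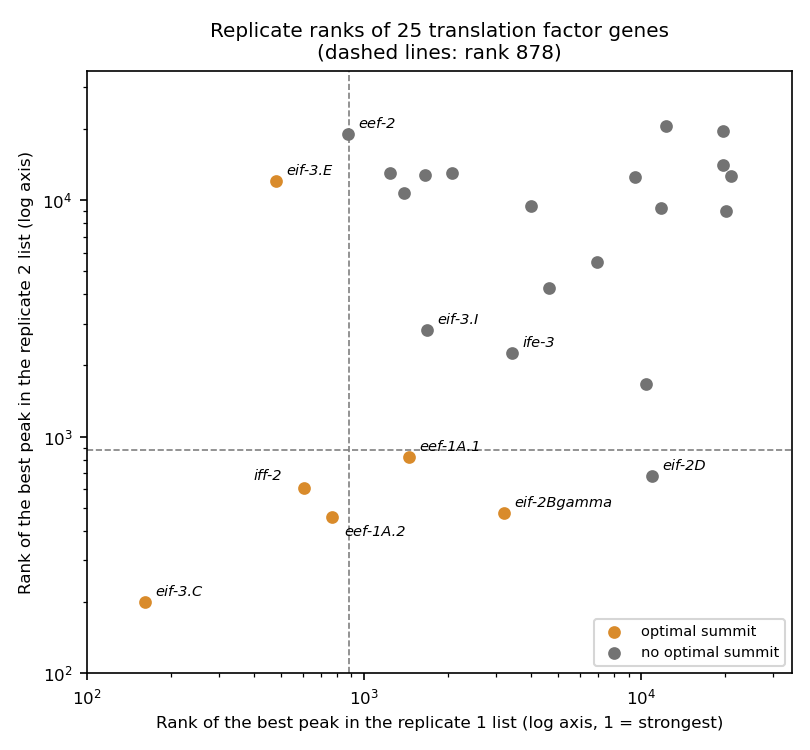
Rank of the best peak in replicate 1 (horizontal) and replicate 2 (vertical), both on log axes with low ranks for strong peaks, for the 25 genes with a summit in all 3 relaxed lists, with genes that have an optimal summit in orange and dashed lines at rank 878. Only eif-3.C, iff-2 and eef-1A.2 lie in the corner below both lines, and eif-3.E and eef-2 stand at the upper left with ranks of 11993 and 18999 in replicate 2.

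Most summits lay upstream of the genes and close to them. The best pooled summit was upstream of the 5′ end in 27 of the 31 genes (87.1%), beside 72.8% of the 7922 protein-coding genes with one, and within 300 bp upstream in 18 (58.1%), beside 30.3%. The median position was 216 bp upstream (recorded as -216), beside -226 for all genes, and the quartiles were -429 and -66, beside -556 and 28. So the centre was alike and the spread was narrower in these genes. The best summit was between annotated genes in 19 of the 31, inside another protein-coding gene in 6, in a non-coding gene in 2 and inside the factor gene itself in 4. The exceptions with a summit downstream of the 5′ end were eef-2, eif-2beta, eef-1B.2 and eif-2Bbeta, of which eif-2beta had it in an intron 489 bp downstream.

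**Figure D5:**
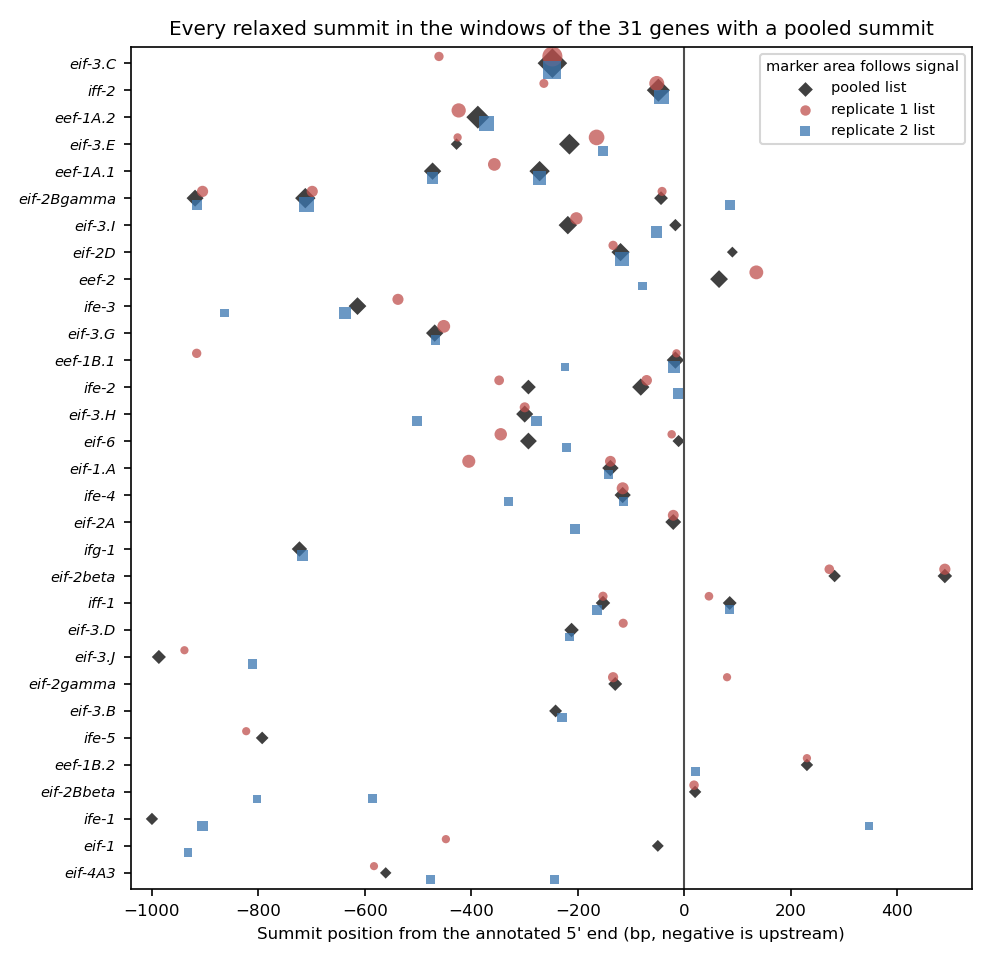
Position of every relaxed summit from the annotated 5′ end (bp, horizontal, negative is upstream) in the windows of the 31 genes with a pooled summit, ordered from the strongest at the top, in the pooled list (black), replicate 1 (red) and replicate 2 (blue), with marker area following the signal. In the upper rows most markers lie within 500 bp upstream of the 5′ end, with eif-2Bgamma and ife-3 farther upstream and eef-2 mostly downstream.

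Many of these genes share their upstream side with another gene. A divergent protein-coding gene was the first gene met within 1000 bp upstream in 20 of the 39 (51.3%), beside 17.2% of protein-coding genes, and a gene on the same strand in 12 (30.8%), beside 27.8%. Another gene overlapped the 5′ end in 1, and 6 (15.4%, beside 48.0%) had no protein-coding gene within that distance. Pooled summits were frequent on each of these backgrounds: at 16 of the 20 divergent factor genes (beside 48.2% of all divergent genes), at 9 of the 12 with a same-strand gene upstream (beside 38.6%) and at 5 of the 6 without a near gene (beside 37.3%). Optimal summits were at 3 of the 20 (beside 6.55%), at 2 of the 12 (beside 2.11%) and at 1 of the 6 (beside 1.94%). At 9 of the 31 genes with a pooled summit, the nearest protein-coding start was that of another gene. A summit between divergent starts belongs to both windows, so a share of the summits counted here also counts for the neighbours.

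Other genes of translation and its control, a list of 29 names of which 25 were found in the annotation, had summits at similar shares. An optimal summit was in the window of 4 of the 25 (16.0%, beside 2.80% of protein-coding genes) and a pooled one in 19 (beside 39.6%), with a median best pooled signal of 64.2. The 4 were erfa-3, drr-2, larp-1 and gfm-1. At erfa-3, which encodes the release factor eRF3, the signal was 291 pooled, 150 in replicate 1 (rank 143) and 137 in replicate 2 (rank 130), which is above that of every gene of the 39. At drr-2, an eIF4H gene, it was 174 pooled, 101 in replicate 1 and 73.3 in replicate 2. At larp-1, a La-related RNA-binding protein gene, it was 146, 79.7 and 55.0 in the same order, and at gfm-1, a mitochondrial elongation factor gene, 137, 76.7 and 57.3. The eIF4A gene inf-1, which the naming rule leaves out, had 86.9 pooled, 56.3 in replicate 1 (rank 1434) and 31.4 in replicate 2 (rank 9623).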

How the data were processed

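The deposited files are peak lists in narrowPeak format, and those on ce11 were used: relaxed lists of replicate 1, replicate 2 and the pooled replicates, and the optimal list that the authors kept by IDR. Signal values and −log10 q-values were deposited by the authors, and 1 control served all lists, per the labels' deposited text. Which aligner and peak caller were run is not stated here because the sources used do not give it. The ce10 lists were not used.

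All 30000 pooled peaks lie within the chromosome lengths of WBcel235, the assembly of ce11, and summits were taken as peak start plus offset. Genes came from Ensembl release 115 (46926 genes), and sequence from the RefSeq copy of WBcel235. Signals were compared only within a list and never averaged. No test was run, since there is 1 group and no contrast. Counts of genes are given beside the same count over all 19985 protein-coding genes. The window step was tested on simulated data first.

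The genes, gene lists, words and settings were chosen with earlier results of these data known. Genes named with values were those with an optimal summit, those among the 878 strongest peaks of either replicate, the 10 highest, the 3 lowest and those without a pooled summit. Others were named after their values were seen. Alternatives were other windows, other 5′ ends, other list sizes, peak overlap, the nearest start, and each replicate alone. The replicates are separate biological samples per the labels. Python 3.11.15, NumPy 2.4.6 and matplotlib 3.10.9 were used.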

Additional observations from a re-analysis of the deposited data

How the results depend on the processing

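Of the 39 genes, 6 had an optimal summit. With a window from 500 bp upstream to 0 bp downstream the count was 5 (beside 384 protein-coding genes, 1.92%). It was 6 (735, 3.68%) with 2000 bp upstream, 7 (622, 3.11%) with all transcripts and 6 (791, 3.96%) by the nearest start. Peak overlap gave 6 (615, 3.08%), and leaving out summits within 200 bp of tRNA, snRNA or snoRNA genes gave 5 (495, 2.48%). Replicate 2 alone gave 6, with eif-2D in place of eif-3.E. Replicate 1 alone gave 5, with eef-2 but without eef-1A.1 and eif-2Bgamma. The count thus moved little under these settings, while the genes in it changed. It followed the length of the list: 1 (2.56%, beside 281 protein-coding genes, 1.41%) in the 439 strongest optimal peaks, 10 (beside 1143) in the 2000 strongest pooled peaks, 19 (beside 2244) in the 5000 strongest and 24 (beside 3693) in the 10000 strongest, of which 2000 and 10000 were chosen after seeing the data. Over all protein-coding genes, each replicate alone gave 489 to 566, beside 560. The median best signal of 77.5 was 84.2 with the window of 500 bp upstream, over fewer genes (21, 53.8%, beside 19.9% of protein-coding genes with a pooled summit, and 17, 43.6%, beside 8.88%, in all 3 lists), 61.2 with genes without a summit counted at 0, and 31.9 to 40.0 in the replicate lists, whose scale is lower. By the nearest start eef-1A.1 was lost to rfc-4 and eif-3.I gained, and the 500 bp window lost eif-2Bgamma. No paired analysis was possible because there is 1 group. The members number 39, so 1 gene moves a share by over 2 points, and the depth of the libraries is unknown.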
